A study of Mus musculus with 6 samples.

Results

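The TCF and LEF transcription factors are a family of 4 genes in the mouse, Lef1, Tcf7, Tcf7l1 and Tcf7l2, and were taken here by symbol from the 51912 Ensembl genes of the count table. All 4 were found, all 4 passed the filter on low counts, and none of their values was fractional, so the values show no sign of reads divided between them and similar genes. The cells were R1 mouse embryonic stem cells, an established line, grown in 2iLIF, which combines LIF with a MEK inhibitor and a GSK3 inhibitor. They were then moved to serum-free N2B27 that held 100 ng/ml FGF2. Messenger RNA libraries were made after 24 h (3 libraries) and after 48 h (3 libraries). The question addressed here is how the levels of these 4 genes, and the balance of activator and repressor types among them, differed between the first and the second day. Both groups had left 2iLIF and both had received FGF2, and cells in 2iLIF or in N2B27 without FGF2 were not analysed here, so FGF2, the change of medium and time in culture cannot be told apart. The labels do not say whether replicates were separate cultures, and the p-values then measure only the spread between these libraries.

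TCF and LEF proteins bind DNA through an HMG box, a domain that bends the helix, and are the nuclear end of the canonical WNT pathway. Without a WNT signal the destruction complex, which contains GSK3, marks beta-catenin for breakdown, and the TCF proteins hold their targets silent with co-repressors of the TLE (Groucho) family. When GSK3 is inhibited, beta-catenin accumulates, binds the TCF proteins at their N terminus, and either turns targets on or lifts repression. In mouse embryonic stem cells Tcf7l1 is known mainly as a repressor that restrains naive pluripotency genes, Lef1 and Tcf7 are known mainly as activators, and Tcf7l2 can act either way.

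In GENCODE M21 (GRCm38) Lef1 (ENSMUSG00000027985) lies at chr3:131110471-131224356 on the plus strand and Tcf7l2 (ENSMUSG00000024985) at chr19:55741820-55933654 on the plus strand. Tcf7 (ENSMUSG00000000782) lies at chr11:52252371-52283014 and Tcf7l1 (ENSMUSG00000055799) at chr6:72626378-72789254, both on the minus strand. All 4 are protein-coding, and the counts cover each gene as a whole, so the isoforms of a gene (22 annotated transcripts for Tcf7l2, 8 for Lef1, 5 for Tcf7l1 and 2 for Tcf7) are not separated.

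The domain that the 4 genes share is shown because it is where their sequences are most alike. The 180 coding bases below are the stretch of highest identity between the longest coding sequences of the 4 genes and lie in the HMG box and the basic residues that follow it. They come from the GENCODE M21 transcripts, run 5′ to 3′ on the coding strand, and capitals mark the 58 positions at which the 4 genes do not all carry the same base.
Lef1: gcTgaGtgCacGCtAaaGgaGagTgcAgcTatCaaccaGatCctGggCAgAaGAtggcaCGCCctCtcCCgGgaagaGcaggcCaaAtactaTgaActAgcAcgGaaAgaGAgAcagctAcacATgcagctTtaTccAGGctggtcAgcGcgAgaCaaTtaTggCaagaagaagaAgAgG
Tcf7: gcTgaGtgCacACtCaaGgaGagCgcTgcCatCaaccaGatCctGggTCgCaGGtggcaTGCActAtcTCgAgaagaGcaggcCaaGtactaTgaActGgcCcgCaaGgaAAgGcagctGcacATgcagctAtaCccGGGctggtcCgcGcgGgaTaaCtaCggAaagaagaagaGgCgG
Tcf7l1: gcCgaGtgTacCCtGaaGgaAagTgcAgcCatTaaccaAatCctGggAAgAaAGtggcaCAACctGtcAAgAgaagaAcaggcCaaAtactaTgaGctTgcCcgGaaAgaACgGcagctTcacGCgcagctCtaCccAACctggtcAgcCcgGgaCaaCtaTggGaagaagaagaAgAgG
Tcf7l2: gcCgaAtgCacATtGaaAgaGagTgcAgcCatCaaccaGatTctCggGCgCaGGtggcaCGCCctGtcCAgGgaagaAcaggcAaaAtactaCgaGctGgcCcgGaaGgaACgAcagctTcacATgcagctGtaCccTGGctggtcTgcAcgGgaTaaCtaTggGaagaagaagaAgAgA
The remaining 122 bases were the same in all 4 genes. Between pairs of genes the identity over this stretch ranged from 77.2% (Tcf7 with Tcf7l1) to 81.7% (Lef1 with Tcf7, and Tcf7l1 with Tcf7l2). By translation of these bases, Lef1 and Tcf7l2 had the same amino acid at all 60 codons, Tcf7 had the same as Lef1 at 59, and Tcf7l1 the same as Lef1 at 56. The longest run of identical bases between annotated transcripts of any pair was 23 (Lef1 with Tcf7l1, and Tcf7l1 with Tcf7l2), so the 4 messages are distinct at the level of short stretches although the proteins share their DNA-binding domain.

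Lef1, the activator first known from lymphocytes and later from mesoderm and neural crest, rose the most of the family. Its level was 22.6, 25.7 and 20.05 CPM (counts scaled to the TMM-adjusted library total) in the 24 h libraries and 195.4, 199.9 and 201.3 CPM in the 48 h libraries. All 48 h libraries were far above all 24 h libraries. The fold change was 8.77 (95% interval 8.16 to 9.43), or 3.13 ± 0.05 (standard error) on the log2 scale (adjusted p = 1.6e-17, edgeR's quasi-likelihood test, Benjamini-Hochberg over all genes tested). Lef1 was 57th in size of increase among the 14889 genes tested. Its level per kb of merged exon stood at the 39.05th percentile of those genes at 24 h and at the 84.1st at 48 h. In CPM, with no length correction, it stood at the 53.97th and the 92.4th, so the rank depended on the length used. At 24 h the coefficient of variation between replicates was 12.4%, where counting noise alone gives 4.55%, and at 48 h it was 1.55%, where counting noise gives 1.51%. The 24 h libraries were therefore the less even group for this gene. In bulk RNA, fewer cells of a type and less RNA per cell cannot be told apart.

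**Figure D1:**
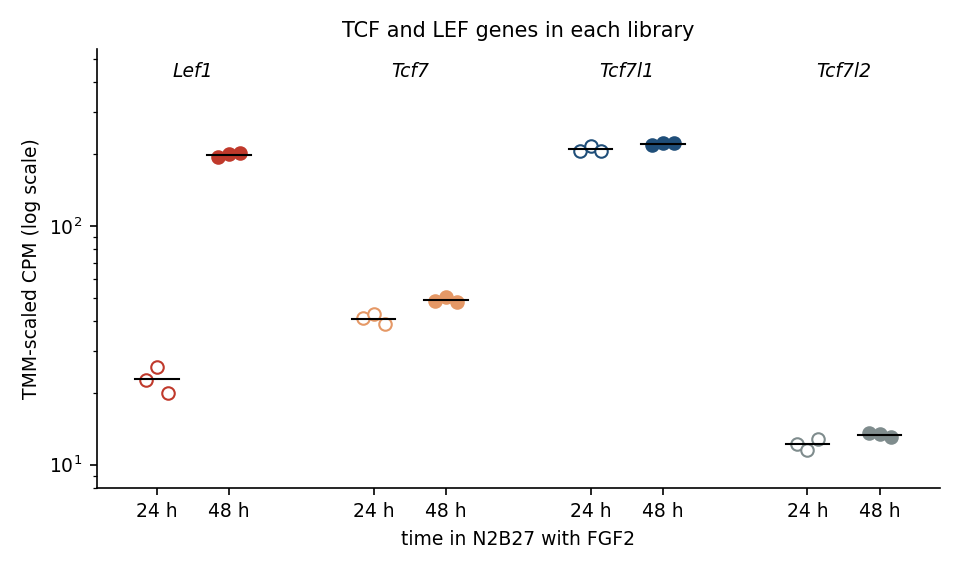
Level of each TCF and LEF gene in each library, in TMM-scaled CPM on a log axis. Open points are the 3 libraries at 24 h, filled points the 3 libraries at 48 h, and bars the group means. Lef1 moves from a mean of 22.8 to 198.8 CPM, while Tcf7, Tcf7l1 and Tcf7l2 stay close to their 24 h levels.

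Tcf7, the other activator type, rose by a small amount. Its level was 41.05, 42.9 and 38.9 CPM at 24 h and 48.5, 50.2 and 47.99 CPM at 48 h. Every 48 h library was above every 24 h library, and the fold change was 1.196 (95% interval 1.12 to 1.27). On the log2 scale this was 0.26 ± 0.04 (standard error, adjusted p = 6.92e-05, edgeR). Its size was near the middle of all genes tested, at the 49.04th percentile of absolute log2 fold change.

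Tcf7l1, the repressor type and the most abundant member, had a small fold change. Its level was 206.2, 216.8 and 206.7 CPM at 24 h and 218.5, 221.998 and 222.96 CPM at 48 h. The highest 24 h library lay just under the lowest 48 h library. The fold change was 1.05 (95% interval 1.02 to 1.09), or 0.08 ± 0.02 (standard error) on the log2 scale (adjusted p = 0.0108, edgeR). This call was lost with library size as the only scaling (log2 fold change 0.02, adjusted p = 0.59) and without replicate 1 (0.06, adjusted p = 0.0588) or replicate 3 (0.06, adjusted p = 0.0571) of 24 h, and over all alternatives the adjusted p ranged from 0.00279 to 0.59. The interval gives the limit of the change: an increase above 1.09-fold, or any decrease, lies outside it in this fit. The interval overlaps that of Tcf7l2, and without replicate 2 of 24 h the log2 fold change of Tcf7l2 (0.09) was below that of Tcf7l1 (0.10), so the order of the smallest changes in the family is not settled.

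Tcf7l2, the member best known from intestine and liver, was the least abundant and was not called. Its level was 12.3, 11.5 and 12.8 CPM at 24 h and 13.6, 13.4 and 13.04 CPM at 48 h. The groups did not overlap, but they were separated by less than the range of either one, and 66.9% of all genes tested had groups that did not overlap. On the log2 scale the difference was 0.13 ± 0.08 (standard error, adjusted p = 0.145, edgeR), and the 95% interval of the fold change ran from 0.979 to 1.23. It rested on 236 to 301 counts in a library, the lowest counts of the family.

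In all, 3 of the 4 genes rose and 1 was not called, with a median log2 fold change of 0.19. The call of Tcf7l1, at 1.05-fold, was lost in 4 of 15 alternatives. Over all 14889 genes 62.8% were called in either direction, 30.9% higher and 31.9% lower (4600 and 4745 genes), with a median log2 fold change of -0.01. With library size as the only scaling, 3779 genes were higher and 5694 lower. A call is therefore common in this comparison, and the members are better compared by the size of their change. The log2 ratio of Lef1 to Tcf7l1 within a library does not depend on the scaling between libraries. In reads per kb of merged exon, Lef1 stood at 0.0489, 0.0529 and 0.0433 of Tcf7l1 at 24 h and at 0.399, 0.402 and 0.403 at 48 h. The ratio was 8.33-fold higher at 48 h, a difference of 3.06 on the log2 scale between groups with SDs of 0.15 and 0.01 (n = 3 each). The exact permutation p (two-sided) was 0.1, which is as low as 3 against 3 can reach. The ratio of Lef1 to Tcf7 was 7.35-fold higher at 48 h with the same exact permutation p of 0.1. The ratio of Tcf7 to Tcf7l1 was 1.13-fold higher (exact permutation p = 0.1), that of Tcf7l2 to Tcf7l1 1.04-fold higher (exact p = 0.6) and that of Tcf7 to Tcf7l2 1.09-fold higher (exact p = 0.3). Of the 6 pairs, the 3 with Lef1 moved by 7.35-fold or more and the other 3 by 1.13-fold or less. No pair of genes could pass 0.05 by the exact permutation test with 3 libraries against 3, with or without adjustment over the 6 pairs.

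**Figure D2:**
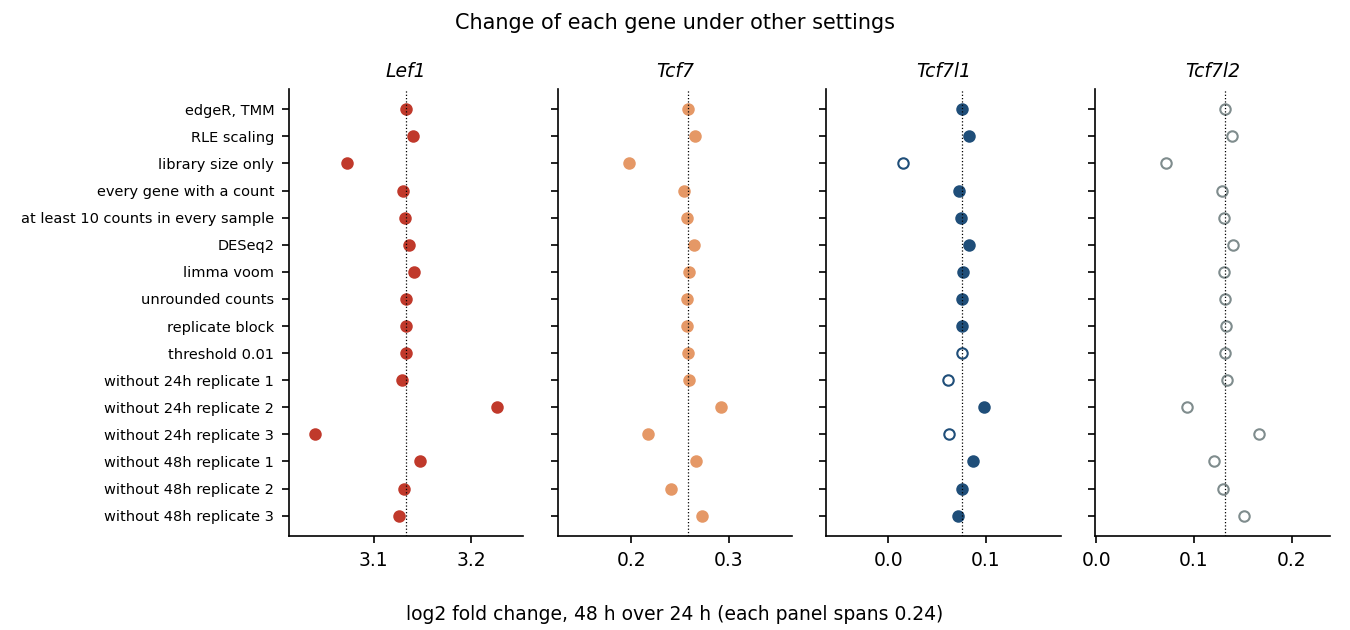
Log2 fold change (48 h over 24 h) of each TCF and LEF gene with edgeR and TMM and in 15 alternatives. Filled points passed the threshold of the setting, open points did not, and the dotted line is the value with edgeR and TMM. Lef1 stays between 3.04 and 3.23 and Tcf7 between 0.20 and 0.29, while Tcf7l1 lies between 0.02 and 0.10 and loses its call in 4 settings.

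Levels of different genes were compared per kb of merged exon, since a longer message yields more fragments. At 24 h the order was Tcf7l1, Tcf7, Lef1 and Tcf7l2, with mean levels of 53.5 ± 1.53, 15.6 ± 0.774, 2.59 ± 0.321 and 1.39 ± 0.0707 CPM per kb (SD, n = 3). At 48 h the order was Tcf7l1, Lef1, Tcf7 and Tcf7l2, with 56.4 ± 0.593, 22.6 ± 0.35, 18.6 ± 0.44 and 1.52 ± 0.0343 CPM per kb. Lef1 thus moved past Tcf7, and at neither time did the libraries of neighbours in this order overlap. At 48 h the lowest library of Lef1 (22.2) stood above the highest of Tcf7 (19.1), and at 24 h the lowest of Lef1 (2.28) above the highest of Tcf7l2 (1.45). The merged exons of Lef1 and Tcf7l2 are long (8788 and 8775 bases) against those of Tcf7 (2625) and Tcf7l1 (3924), because they join all annotated variants. With the longest transcript as the length (3656 bases for Lef1 and 3042 for Tcf7l1) the order was the same at both times, but Lef1 at 48 h came to 54.4 CPM per kb beside 72.7 for Tcf7l1.

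The make-up of the family differed between the times. Lef1 and Tcf7, the activator types, together held 25.2%, 25.4% and 23.99% of the family's reads per kb at 24 h and 41.6%, 41.9% and 41.4% at 48 h. Tcf7l1, the repressor type, held 72.8%, 72.9% and 73.97% at 24 h and 56.9%, 56.6% and 57.1% at 48 h. Neither share overlapped between the times. The types are assigned by gene, and gene counts do not separate forms of a gene that may differ in type. The longest coding sequence of Tcf7 used here was 909 bases, beside 1191 for Lef1. The gene model of Tcf7 used here ends at chr11:52283014. The RefSeq promoter window next to it, chr11:52283015-52283264, holds an atg whose reading frame has no stop codon up to the window's end. These bases are outside the model, so the length used for Tcf7 does not include them. Whether the counted Tcf7 messages code for the N terminus that binds beta-catenin was not tested. The activator share was higher by 16.7 percentage points at 48 h and the Tcf7l1 share lower, at -16.4 points. Each had a two-sided exact permutation p of 0.1, the smallest possible with 3 against 3. Both are parts of the same total, so they are not independent results. The level of Tcf7l1 itself did not fall, with means of 209.9 CPM at 24 h and 221.2 CPM at 48 h. Within the activator pair the shares moved in opposite directions: that of Lef1 went from 3.54% ± 0.326 to 22.8% ± 0.171 (SD, n = 3) and that of Tcf7 from 21.3% ± 0.483 to 18.8% ± 0.378, although the level of Tcf7 itself was higher at 48 h. Tcf7l2 held 1.903% ± 0.158 at 24 h and 1.54% ± 0.0462 at 48 h. With the longest transcript as the length, the activator share went from 23.96% ± 0.937 to 49.3% ± 0.155 and that of Tcf7l1 from 72.6% ± 0.695 to 48.3% ± 0.156, so which type held more at 48 h depended on the length used. With this length the lead of the activator types at 48 h was smaller than the share of Tcf7l2 (2.39% ± 0.0746), so it also depended on the type that Tcf7l2 is placed with.

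**Figure D3:**
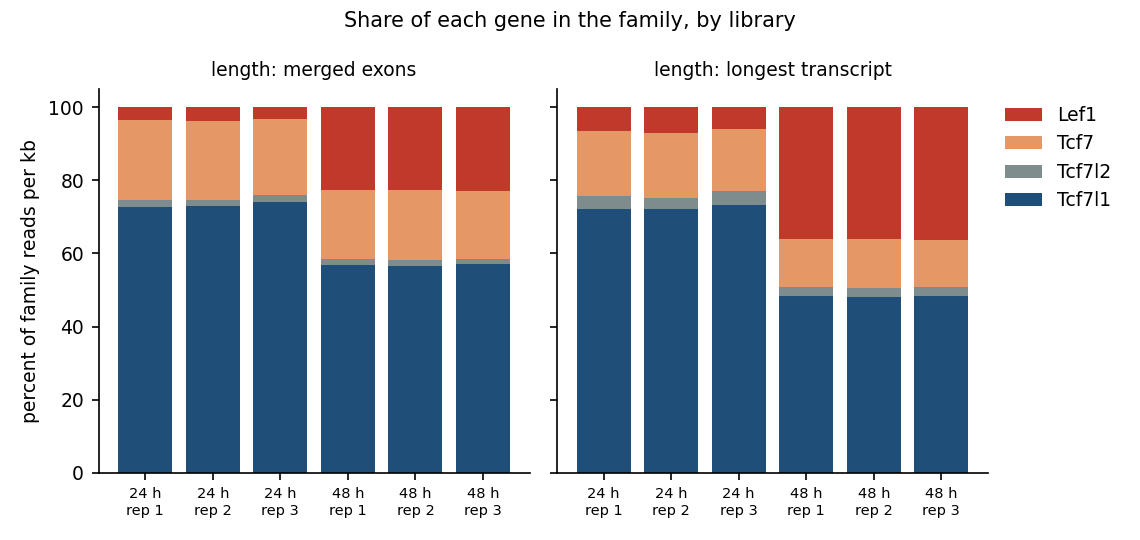
Percent of the family's reads per kb held by each gene in each library, with the merged exon length (left) and the length of the longest transcript (right). The Tcf7l1 share goes from between 72.8% and 73.97% at 24 h to between 56.6% and 57.1% at 48 h on the left, while the Lef1 share goes from at most 3.85% to at least 22.7%.

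The summed level of the 4 genes was 282.1, 296.97 and 278.4 CPM at 24 h and 476.01, 485.5 and 485.3 CPM at 48 h. The mean was 1.69-fold higher at 48 h (log2 difference 0.76, two-sided exact permutation p = 0.1, the smallest possible). Of the gain of 196.4 CPM, 89.6% was that of Lef1. The summed level in reads per kb was higher by 0.44 on the log2 scale.

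Lef1 and Tcf7l1 each overlap an annotated antisense gene in their exons, Lef1 over 1208 bases with Gm43352 and Tcf7l1 over 179 bases with Gm15401. Whether the counting used strand is not given in the sources used here, so reads of a gene and its antisense partner cannot be told apart with certainty. Gm43352 had 2, 3 and 0 counts at 24 h and 15, 27 and 18 at 48 h, against 451 to 526 and 4245 to 4462 for Lef1. Gm15401 had 0 to 2 counts in a library. As counted, these partners were small beside the genes they overlap. Of the 80 other genes of the lists that the annotation holds, 18 also share exon bases with a gene on the opposite strand, among them Axin2, Notum, Ccnd1, Ctnnb1, Ctnnbip1, Bcl9l, Btrc, Gsk3a, Tle1, Tle2, Eomes and Pou5f1, and their values carry the same uncertainty.

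The promoter of Lef1 is shown because it belongs to the member that rose most. RefSeq (GRCm38.p6) gives 4 start sites for Lef1, and the 250 bases before the most upstream one, chr3:131110047-131110296 on the plus strand, are as follows, with the core letters CTTTG of the TCF and LEF binding motif in capitals.
Lef1 promoter: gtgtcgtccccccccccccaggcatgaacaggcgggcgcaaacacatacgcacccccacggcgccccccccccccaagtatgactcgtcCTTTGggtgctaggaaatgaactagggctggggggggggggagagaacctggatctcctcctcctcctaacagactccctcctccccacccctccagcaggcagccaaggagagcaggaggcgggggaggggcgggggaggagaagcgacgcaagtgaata
This window held the core once and had a GC content of 66.4%. The core is short, and 53.9% of the 32851 RefSeq promoter windows (300 bases, 250 before to 50 after a start) held CTTTG on either strand, as did 7 of the 9 windows of the 4 members. The fuller forms CTTTGAA and CTTTGAT, each of which contains the core, were in 5.14% and 3.73% of all windows on either strand and in 0 of the 9 windows of the members. Of the 9 WNT target genes with a window, 4 held the core CTTTG, 2 held CTTTGAA and 2 held CTTTGAT. A match or its absence describes the letters of these windows only.

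Beta-catenin (Ctnnb1), the partner that TCF and LEF proteins need for activation, rose from 793.8 ± 6.86 to 900.3 ± 4.52 CPM (SD, n = 3; on the log2 scale 0.18 ± 0.01 standard error, adjusted p = 1.88e-08, edgeR). Of the 10 genes of the list of beta-catenin and its destruction complex, 2 rose, 5 fell and 3 were not called, with a median log2 fold change of -0.03. Over all genes tested 30.9% were higher and 31.9% lower, and the counts of this and the following lists stand beside those shares. Gsk3b, the kinase that marks beta-catenin and that 2iLIF inhibits, fell from 107.1 ± 2.41 to 91.3 ± 0.998 CPM (log2 fold change -0.23). Axin2, the feedback scaffold, fell from 17.1, 15.9 and 17.04 CPM to 8.05, 7.54 and 8.57 CPM (log2 fold change -1.05, adjusted p = 8.39e-09). Apc, the central scaffold, was at 212.8 ± 3.1 and 215.3 ± 1.87 CPM (log2 fold change 0.02, adjusted p = 0.527), and Gsk3a and Amer1 were not called either. The calls of 2 genes depended on the setting: Csnk1a1 (-0.05) lost its call in 8 of 15 alternatives, among them each fit without a 24 h library and those without replicate 1 or 2 of 48 h (adjusted p from 0.0512 to 0.191), and Btrc (0.14) in 6, among them library size as the only scaling (0.08, adjusted p = 0.152) and the fits without replicate 3 of 24 h or replicate 1 or 2 of 48 h (adjusted p from 0.0562 to 0.0626).

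Of the 9 co-activators that work with TCF and beta-catenin, 6 rose and 3 fell, with a median of 0.13. The shares over all genes tested were 30.9% higher and 31.9% lower. Bcl9, which bridges beta-catenin to the Pygopus proteins, rose by 0.30 on the log2 scale, from 39.3 ± 1.73 to 48.4 ± 2.05 CPM (SD, n = 3; adjusted p = 1.96e-05, edgeR). Both Pygopus genes fell, Pygo2 with a log2 fold change of -0.34 and Pygo1 with -1.47, the latter from 3.55 ± 0.218 to 1.28 ± 0.294 CPM. The acetyltransferase genes Crebbp and Ep300 rose by 0.12 and 0.13, and Smarca4, the remodelling ATPase, by 0.22. Bcl9l also fell (-0.17, adjusted p = 0.0452), but lost its call in 9 of 15 alternatives, including the replicate block (adjusted p = 0.0661) and the fits without replicate 2 or 3 of either time (adjusted p from 0.108 to 0.155). Crebbp lost its call with library size as the only scaling (0.06, adjusted p = 0.0869).

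The 10 co-repressors moved apart from each other: 3 rose, 6 fell and 1 (Hdac1) was not called, with a median of -0.32. Among all genes tested, 30.9% rose and 31.9% fell. Tle4, the most abundant Groucho gene, rose from 313.2, 307.8 and 297.6 CPM to 435.8, 433.1 and 433.4 CPM (log2 fold change 0.50, adjusted p = 1.68e-12, edgeR), and Ctbp2, another co-repressor gene, from 219.2 ± 6.21 to 320.95 ± 2.42 CPM (SD, n = 3; 0.55). Tle3 fell from 98.8 ± 3.46 to 70.8 ± 2.14 CPM (log2 fold change -0.48) and Tle1 from 23.9 ± 2.09 to 19.02 ± 1.34 CPM (-0.33). Aes, a short Groucho-related protein, fell from 112.8 ± 3.64 to 51.8 ± 0.862 CPM (-1.12, adjusted p = 3.76e-14). Tle2 and Tle6 also fell, from 24 h means of 1.23 and 3.63 CPM. The summed level of the list was between 1307 and 1329 CPM at 24 h and between 1416 and 1422 CPM at 48 h, so more of its genes fell while its sum was higher. Tle1, Tle4, Ctbp2 and Hdac1 had fractional counts in some libraries, so part of their reads was shared out among look-alike sequences, and the same holds for Med12, Tfcp2l1 and Tubb3 of the other lists.

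Of the 6 proteins that modify TCF or block its binding to beta-catenin, 5 were tested, 1 rose, 3 fell and 1 was not called. Over all genes tested, 30.9% rose and 31.9% fell. Hipk2, a kinase that phosphorylates TCF proteins, rose from 44.995 ± 2.23 to 62.1 ± 1.37 CPM (SD, n = 3; on the log2 scale 0.47, adjusted p = 4.16e-08, edgeR). Tnik, a kinase that acts with Tcf7l2, fell from 12.2 ± 0.16 to 5.35 ± 0.678 CPM (-1.19). Ctnnbip1, which blocks the contact of beta-catenin with TCF, was at 16.8 ± 1.29 and 16.9 ± 0.87 CPM (0.01, adjusted p = 0.932). Nlk and Cby1 fell by less, with -0.13 and -0.21, and DESeq2 called 1 gene lower in this list where edgeR called 3. With replicate 3 of 24 h left out Nlk was no longer called (adjusted p = 0.0724), and neither was Cby1 with replicate 2 of 24 h (0.0531) or replicate 1 of 48 h (0.0569) left out.

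Of the 14 WNT target genes, 7 were tested, 3 rose, 2 fell and 2 were not called, with a median of 0.10. Over all genes tested, 30.9% rose and 31.9% fell. Ccnd1, a cell cycle gene, rose from 179.9 ± 3.48 to 240.99 ± 6.44 CPM (SD, n = 3; on the log2 scale 0.42, adjusted p = 2.18e-10, edgeR). Nkd1, a feedback inhibitor, rose from 2.90, 3.37 and 2.33 CPM to 5.34, 6.44 and 5.46 CPM (1.01), and Tnfrsf19 rose by 0.40. Notum, a secreted WNT inhibitor, fell from 56.6, 55.7 and 60.4 CPM to 25.3, 24.2 and 26.7 CPM (-1.18), as did Axin2. Sp5, Lgr5, Rnf43, Dkk1, Cdx1, Cdx2 and brachyury (T) had 0 to 8 counts in a library and were not tested. The list thus held genes on both sides, while Lef1, which is itself often counted as a WNT target, rose.

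All 5 naive genes that are known as targets of Tcf7l1 repression fell, with a median of -1.49, where 31.9% of all genes tested fell. Esrrb, an orphan nuclear receptor gene, fell from 568.8 ± 12.7 to 204.8 ± 0.622 CPM (SD, n = 3; on the log2 scale -1.47, adjusted p = 4.72e-18, edgeR). Tfcp2l1 fell from 288.4, 288.2 and 304.5 CPM to 62.4, 62.6 and 60.5 CPM (-2.25) and Klf2 from 90.98 ± 7.85 to 32.4 ± 1.65 CPM (-1.49). Nr0b1 fell the least, at -0.36. These falls stood beside a level of Tcf7l1 that was 1.05-fold higher at 48 h. They were known from an earlier look at these libraries and are not independent evidence about Tcf7l1.

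**Figure D4:**
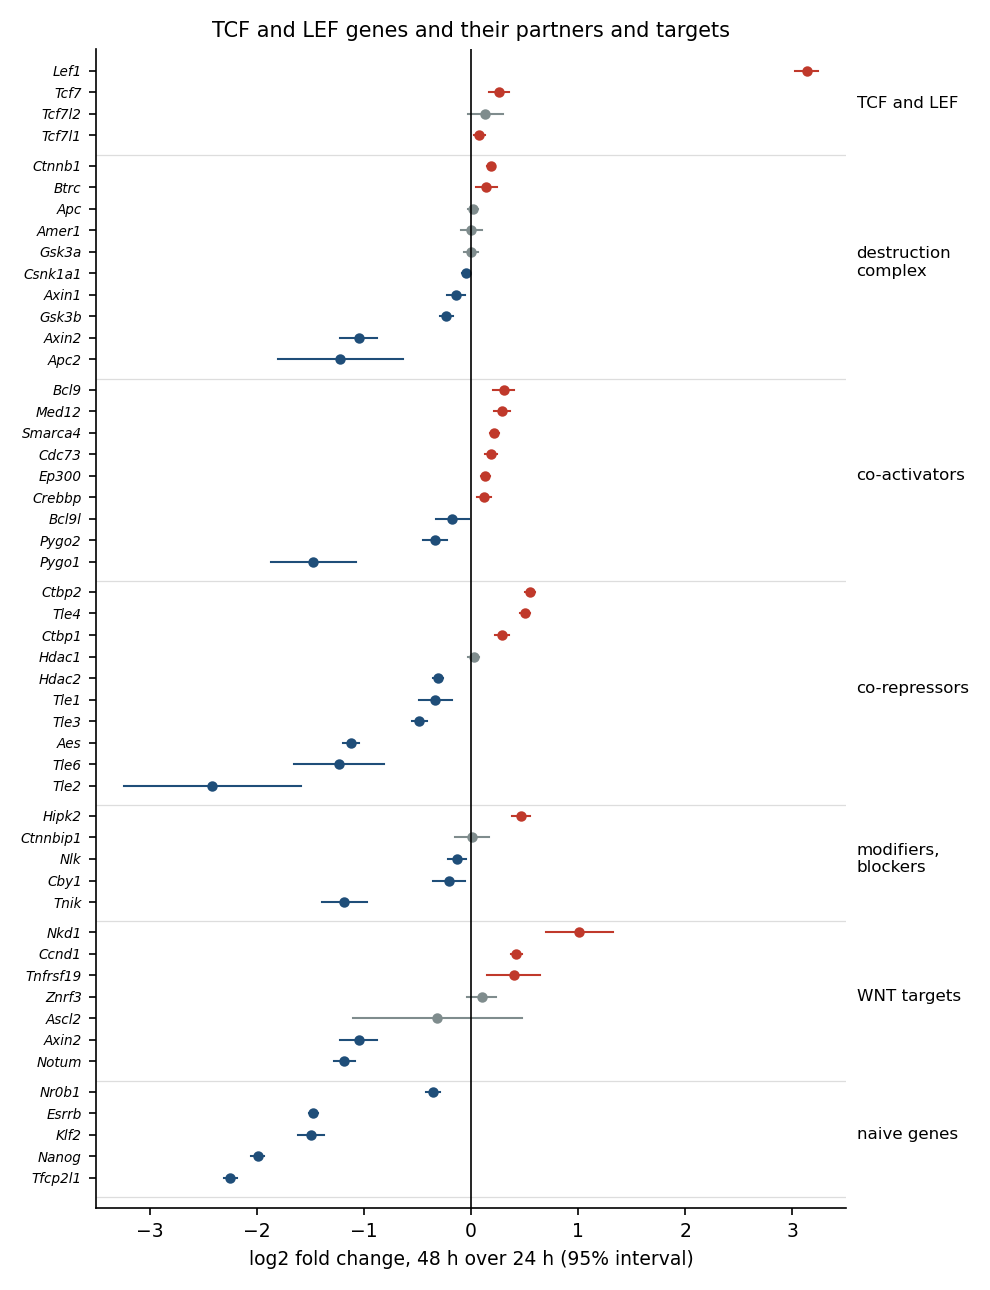
Log2 fold change (48 h over 24 h) with its 95% interval for each tested gene of the family and of the 6 lists of partners and targets; Axin2 stands in 2 lists. Red genes rose, blue genes fell and grey genes were not called. Lef1, at 3.13, lies to the right of every other gene shown, and all 5 naive genes lie to the left of 0.

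Markers of the labelled cells and of other cell types were read beside these values. The 7 markers of pluripotent cells were all tested and summed to between 4154 and 4256 CPM at 24 h and between 3055 and 3141 CPM at 48 h. Of these 7, 2 rose and 5 fell, where 30.9% and 31.9% of all genes tested did. Lin28a rose from 191.95 ± 7.83 to 562.8 ± 4.86 CPM (SD, n = 3; on the log2 scale 1.55) and Utf1 by 0.60 on that scale. Nanog (-1.99), Esrrb (-1.47), Zfp42 (-1.06) and Sox2 (-0.37) fell, and Pou5f1 fell from 1111 ± 1.99 to 1058 ± 15.2 CPM (-0.07). The 6 primitive streak and mesoderm markers, a tissue in which Lef1 is also known, summed to between 15.7 and 18.6 CPM at 24 h and between 12.8 and 14.8 CPM at 48 h, mostly Eomes, and brachyury had at most 2 counts in any library. The 6 neural progenitor markers summed to between 127.1 and 136.6 CPM at 24 h and between 144.1 and 156.1 CPM at 48 h, with Sox1 and Pax6 higher (log2 fold changes 1.31 and 1.56) and Nes and Tubb3 lower (-0.19 and -0.53). The call of Nes was lost without replicate 2 (adjusted p = 0.0949) or replicate 3 (0.0652) of 48 h in edgeR. Whether the rise of Lef1 lay in the same cells as that of Sox1 and Pax6 was not tested. The 6 primitive endoderm markers summed to between 8.51 and 10.4 CPM at 24 h and between 5.35 and 5.94 CPM at 48 h. Of the 2 that were tested, Gata4 fell (log2 fold change -1.38, adjusted p = 4.89e-07, edgeR) and Dab2 was not called (adjusted p = 0.388, edgeR). The 6 feeder fibroblast markers summed to between 2.54 and 3.35 CPM at 24 h and between 1.47 and 2.39 CPM at 48 h. Of the 2 that were tested, Col1a1 fell (-1.76, adjusted p = 0.000654, edgeR) on 4 to 30 counts in a library, and Thy1 was not called. Postn and Lum had 0 counts in every library. The sum of every marker list, these included, did not overlap between the times, and 66.9% of all genes tested did not overlap either. The part of endoderm and feeder cells in the results was not tested.

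For each member the 3 protein-coding genes with the most similar profile were found, as the smallest root mean square difference of log2 CPM over the 6 libraries, each profile centred on its own mean. Those of Lef1 were Irs4 (0.092), Myrf (0.10) and Ccno (0.11), with log2 fold changes of 2.999, 3.002 and 3.22. Myrf had the level closest to that of Lef1, 30.2 CPM at 24 h and 240.1 CPM at 48 h. Those of Tcf7 were Use1, Rbm12 and Tipin (0.016 to 0.019), those of Tcf7l1 were Psmc4, Ruvbl2 and Cog8 (0.0096 to 0.012), and those of Tcf7l2 were Ric3, Dpysl5 and Hs6st1 (0.017 to 0.019). With 6 libraries in 2 groups, this likeness mostly reflects the size of the change between the times, and the genes of the flat members are picked from many genes that hardly changed.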

How the data were processed

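Estimated counts per gene were deposited by the authors as 1 table from RSEM, per the file's name, with 1 column per sample and 51912 Ensembl genes, not scaled for depth or length. The submitters' processing notes name cutadapt 1.9.1, STAR 2.5.2, RSEM 1.3.0 and GRCm38. The annotation and the use of strand are not given in the sources used here. Every column name equalled 1 sample title. The libraries held 19574969 to 23133148 counts. Symbols, lengths and positions came from GENCODE M21, which named 51633 genes, and promoter windows from RefSeq.

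Counts were rounded, filtered by edgeR's filterByExpr (14889 genes kept), scaled by TMM and compared by edgeR's quasi-likelihood test (edgeR version 4.0.16 under R version 4.3.3), with group and no other term in the model. Genes with an adjusted p under 0.05 (Benjamini-Hochberg over all genes tested) are called. A standard error is the size of the log2 fold change over the square root of F. Shares and ratios were tested by exact permutation over libraries. On counts simulated from the levels of these libraries (14614 genes run), the test recovered 62%, 76%, 92% and 100% of genes changed by 0.25, 0.5, 1 and 3 on the log2 scale. Only 50 genes were changed at each size, none of them with very low counts, whereas 62.8% of genes were called in the data. The adjusted p depends on the share of changed genes, so these rates do not carry over to the data. Alternatives were RLE and library-size scaling, 2 other filters, DESeq2 1.42.0, limma 3.58.1 voom, unrounded counts, a replicate block, a threshold of 0.01, leaving out each library and, for shares, other lengths or totals. The named genes are the 4 members, genes of the 6 pathway and 5 marker lists, and the 3 genes most like each member with a mean of at least 5 CPM (compared as log2 CPM, prior count 2). The members and lists were chosen with earlier results of these data known.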

Additional observations from a re-analysis of the deposited data

How the results depend on the processing

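Of 108 alternative values for the family and for the count of changed genes, 98 were kept and 0 reversed. A fold change was kept if its direction and call held. A share, ratio or total was kept if it moved by less than the spread between replicates. The count of changed genes (15 of the values) was kept if it stayed within a set margin of the main count, and it has no direction to reverse. Tcf7l1 (log2 fold change 0.08, adjusted p = 0.0108 by edgeR) lost its call with library size as the only scaling (0.0153, adjusted p = 0.59) and at a threshold of 0.01 (0.0757). Across fits without 1 library its log2 fold change ranged from 0.0616 to 0.0984, and the call was lost without replicate 1 or replicate 3 of 24 h. Under that scaling the median over all genes went from -0.01 to -0.07, and the log2 change of the family total from 0.76 to 0.69. In reads per kb that total changed by 0.44. The activator share was higher by 29.1 points with no length correction and by 25.3 with the longest transcript, against 16.7, and the change in the Tcf7l1 share was -27.6 and -24.3 points, against -16.4. The count of changed genes lay between 7810 and 9792. With the replicate block 9235 genes changed and no member changed its call (Lef1 3.13, Tcf7 0.26, Tcf7l1 0.08, Tcf7l2 0.13). Libraries of the same number deviated from their group means with correlations of -0.05, -0.04 and -0.01, so this measure showed no sign of pairs. It was taken over all genes tested, low counts among them, and cannot show that equal numbers were unpaired. Depth limits Tcf7l2 most, with at most 301 counts in a library.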

Other observations

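The 24 h library of replicate 2 was the highest of its group for Lef1, Tcf7 and Tcf7l1 and the lowest for Tcf7l2. Without it, the log2 fold changes were 3.23 for Lef1, 0.29 for Tcf7, 0.10 for Tcf7l1 and 0.09 for Tcf7l2, and Lef1, Tcf7 and Tcf7l1 kept an adjusted p under 0.05 in edgeR while Tcf7l2 did not. The highest 24 h library held 1.28 times the Lef1 level of the lowest one, and this factor was 1.03 at 48 h. For Tcf7l1 the factors were 1.05 and 1.02.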
